A study of Mus musculus with 5 samples.

Results

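Ribosome biogenesis genes encode the proteins that transcribe, modify, fold and assemble ribosomal RNA in the nucleolus. RNA polymerase I copies the ribosomal DNA, small nucleolar ribonucleoproteins (snoRNPs) of the box C/D and box H/ACA classes guide methylation and pseudouridylation of the transcript, and separate sets of assembly factors build the small and the large subunit. T cells that have been activated by antigen enlarge their nucleoli and raise ribosome production as they grow and divide. The group described here has 47 genes, chosen by their roles and with earlier results of these data known. Of these, 46 have a probe set paired with exactly 1 gene symbol, out of 18193 such genes on the array. The exception is Mrto4, a large subunit factor, whose probe set is shared with pseudogenes. Of several probe sets of 1 gene, the one with the highest mean signal over 5 arrays stood for it.

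CD8 T cells of the same antigen receptor were compared from separate sources. G9C8 is a CD8 T cell clone kept in culture and specific for insulin B chain peptide, and 3 separately frozen vials of this 1 clone gave 3 arrays. NOD.G9C8 transgenic mice carry the receptor of the clone on the NOD/LtJ background, and spleen cells of 2 mice aged 4 to 8 weeks gave 2 arrays. Both kinds of cell were stimulated with the insulin B peptide at 10 µg/ml for 3 days, followed by 2 days of rest with IL2 (5 IU/ml), before total RNA was taken, and the labels name no sort of the spleen cells and no promoter of the transgene. Signals are the deposited array intensities, and differences are clone minus transgenic on the log2(signal + 20) scale, so that 1 is 2-fold for a bright gene. Calls are at limma's adjusted p below 0.05, with adjustment over all 12446 genes whose signal passed a minimum of 88.2.

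All arrays had been scaled to the same trimmed mean of 500, and their median signals ran from 132.2 to 141.9. T cell and CD8 genes were bright on every array: Cd3e ranged from 4879 to 6498 and Cd8a from 8252 to 15499.8, while Cd4 stayed between 32.1 and 50.6. Of 8 T cell markers, 4 were lower in clone, Cd8a among them (-0.68), and 4 were not called. Among markers of other cells, the myeloid ones differed between the groups as a list, and the others gave few calls. Of 13 myeloid markers, 10 were lower in clone, 1 was not called and 2 did not pass the signal minimum. Their summed signal was 16049 and 16305 on the transgenic arrays and 5239 to 5871 on the clone arrays. Ctss was a large part of these sums, at 8938 and 5107 for the 2 mice and 3699, 3884 and 3795 for the 3 vials. Lyz2, encoding lysozyme of myeloid cells, gave 3497 and 5549 for the 2 mice and 274, 327 and 237 for the 3 vials. Of the 7 B cell markers measured, Cd79b was lower (-3.92) and Ebf1 higher (2.44), 2 were not called and 3 did not pass the minimum. Of 2 CD4 T cell, 2 NK cell and 3 erythroid markers measured, Nkg7 alone was called, lower in clone at -0.53. The part of these other cells in the results below was not tested. In RNA of whole cultures, fewer cells of a type and less RNA per cell cannot be told apart.

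Ribosome biogenesis genes were called higher in the clone more often than genes at large, mostly by modest amounts. Of the 46 genes, all of which passed the signal minimum, 25 were higher in clone (54.3%), 1 was lower and 20 were not called. Over all genes tested, 22.0% were called higher and 21.7% lower. The median difference of the 46 genes was 0.34, with a range from -0.75 to 1.24, and the median over all genes tested was -0.01. At 2-fold or more, 4 genes were called higher, Nop58, Nop16, Gnl3 and Gar1, and 0 lower, while 6.84% and 7.91% of all genes tested were higher and lower by that much. The 3 clone arrays lay wholly above both transgenic arrays for 28 of the 46 genes and wholly below them for 5, against 31.9% and 32.6% of all genes tested. With a transgenic array left out, fewer of the 46 genes and fewer of all genes tested were called higher. The median difference of the 46 genes was then 0.30 without the first and 0.34 without the second. The calls were unevenly spread over the roles. Every gene of the box C/D, box H/ACA and abundant nucleolar groups was called higher. Ddx21 is counted among them, though its direction is not settled across its probe sets. Among the polymerase and assembly factor genes 12 of 33 were higher and 1 was lower. The role groups were chosen with earlier results of these data known, so this split only describes these arrays.

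**Figure D1:**
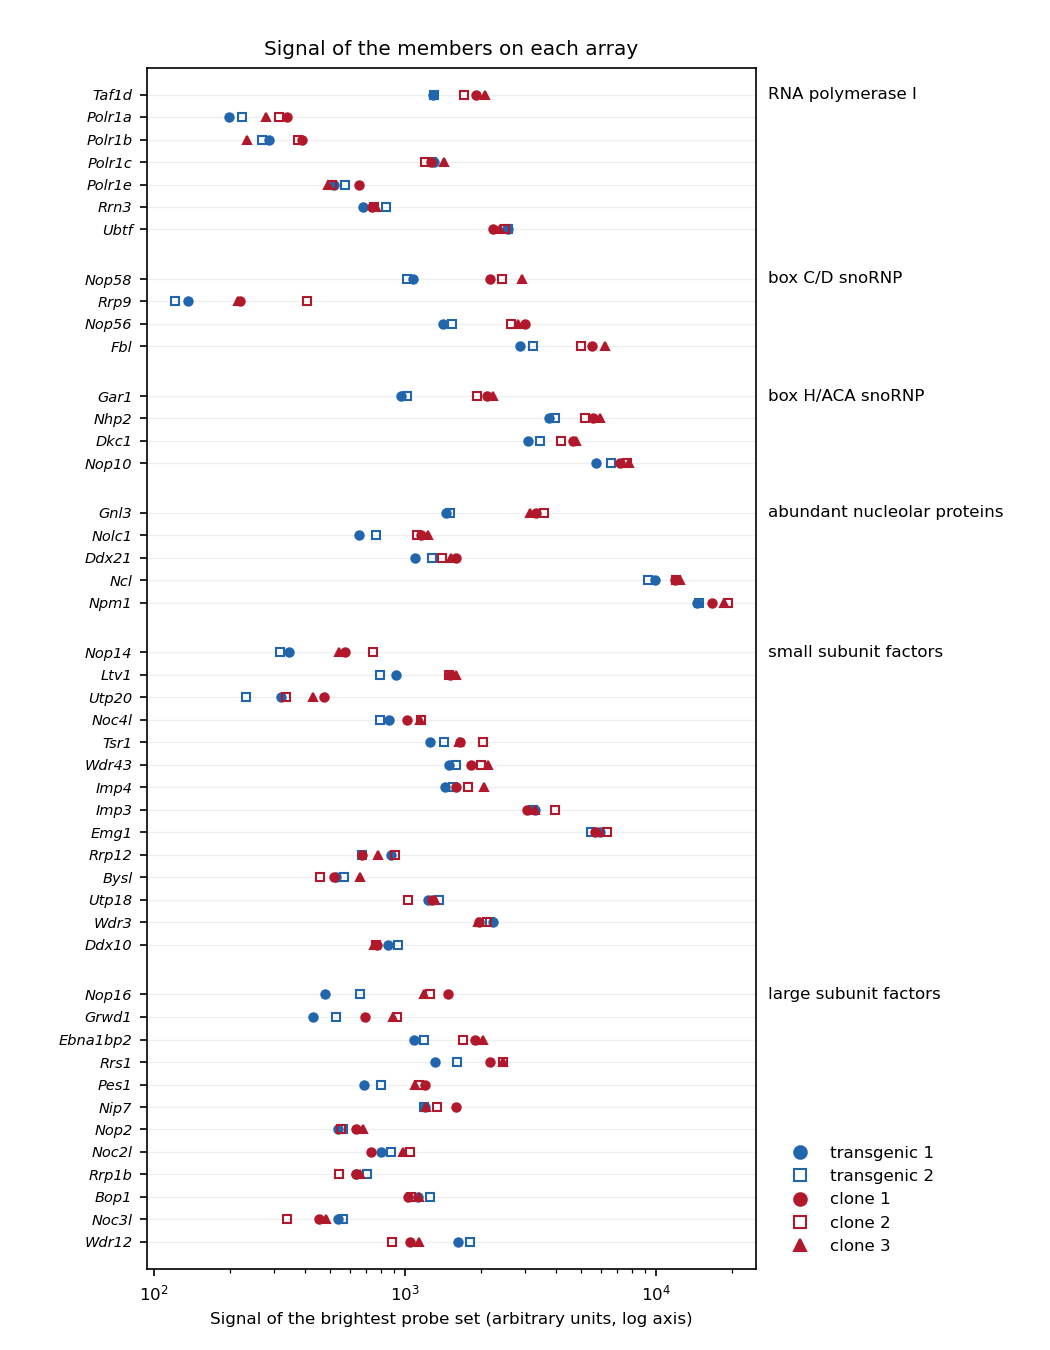
Signal of the brightest probe set of each of the 46 genes (x axis, arbitrary units, log axis) on the 2 transgenic arrays (blue) and the 3 clone arrays (red), grouped by role. In the box C/D, box H/ACA and abundant nucleolar groups all red points lie to the right of all blue points, whereas they mix for genes such as Polr1c, Imp3 and Rrp12.

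The box C/D snoRNP proteins had the largest group median, 0.94, and all 4 were higher in clone. Nop58, a scaffold protein of the particle, gave 1069 and 1014 for the 2 mice and 2169.7, 2440.4 and 2929 for the 3 vials. All of its clone signals were over 2 times the higher transgenic one (difference 1.24, SE 0.13, adjusted p = 0.00014). Nop56, the partner scaffold, gave 1419.8 and 1537 for the 2 mice and 2990.4, 2633 and 2805 for the 3 vials, with a difference of 0.92 (SE 0.10, adjusted p = 0.000146). Fbl encodes fibrillarin, the methyltransferase of the particle, and gave 2876 and 3229 for the 2 mice and 5554, 5023 and 6266 for the 3 vials. The lowest clone value of Fbl was well above the higher transgenic value, and its difference was 0.87 (SE 0.11, adjusted p = 0.0004). Rrp9, a protein specific to the U3 snoRNP that guides early cleavage, was much dimmer, at 136 and 121 for the 2 mice and 220.5, 406 and 216 for the 3 vials. The second clone array stood above the other clone arrays for Rrp9, which widened its error (difference 0.96, SE 0.28, adjusted p = 0.0227). Rrp9 was the gene of this group that lost its call without either transgenic array.

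All 4 proteins of the box H/ACA snoRNP, which also belong to the telomerase particle, were higher in clone, with unequal sizes. Gar1, which with the others positions the RNA for pseudouridylation, led with 962 and 1012 for the 2 mice and 2111, 1936 and 2232 for the 3 vials. Its groups were far apart compared with their spread (difference 1.07, SE 0.10, adjusted p = 8.44e-05). Nhp2 gave 3729 and 3962 for the 2 mice and 5608, 5183 and 5984 for the 3 vials and a difference of 0.54 (adjusted p = 0.00187). Dkc1 encodes dyskerin, the pseudouridine synthase itself, and gave 3099 and 3458 for the 2 mice and 4647, 4168 and 4811 for the 3 vials, a difference of 0.47 (adjusted p = 0.00528). Nop10, the smallest protein of the particle, gave 5745 and 6588 for the 2 mice and 7171, 7641 and 7815 for the 3 vials. Its transgenic values differed by more than the gap to the lowest clone value, and it had the smallest difference of the group at 0.29 (95% confidence interval 0.08 to 0.50, adjusted p = 0.0313). Under quantile normalization the Nop10 difference was 0.12 and not called (adjusted p = 0.232). Without the first transgenic array 2 of the 4 genes were called, since Nop10 (0.19) and Dkc1 (0.39) no longer passed.

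The 5 abundant nucleolar proteins were also called higher as a whole group, with a median of 0.34. Gnl3, encoding the GTPase nucleostemin of dividing cells, stood out with 1454 and 1506 for the 2 mice and 3324, 3574 and 3140.4 for the 3 vials. Its difference of 1.16 (SE 0.09, adjusted p = 3.36e-05) had the lowest adjusted p of all 46 genes. Nolc1, a snoRNP chaperone of the nucleolus and Cajal body, gave 653 and 767 for the 2 mice and 1152, 1111 and 1229 for the 3 vials and a difference of 0.70 (adjusted p = 0.00164). Ncl encodes nucleolin, which binds nascent ribosomal RNA, and gave 9924 and 9278 for the 2 mice and 11890.5, 11944 and 12453 for the 3 vials. Npm1 encodes nucleophosmin, a histone chaperone of the nucleolar granular component, and gave 14544 and 14861 for the 2 mice and 16627, 19374 and 18691 for the 3 vials. Neither gene's groups overlapped, but the differences were small, 0.33 (adjusted p = 0.00874) and 0.31 (adjusted p = 0.0223). The arrays' highest signals were 25836 to 30579, so that Npm1 lay in their upper range. The RNA helicase gene Ddx21 gave 1094 and 1279 for the 2 mice and 1587, 1403 and 1526 for the 3 vials, a difference of 0.34 (adjusted p = 0.0384), and its other probe set pointed the opposite way, as given below. Without the first transgenic, the second transgenic or the third clone array 3 of the 5 genes were called.

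Among the 14 small subunit factors, 5 were higher (35.7%, against 22.0% of all genes tested) and 9 were not called, with a median of 0.16. Nop14, a structural protein of the small subunit processome, gave 343 and 317 for the 2 mice and 574, 744 and 544 for the 3 vials. All clone values exceeded 1.5 times the transgenic ones (difference 0.86, SE 0.16, adjusted p = 0.00316). Ltv1, which accompanies the late precursor of the small subunit, gave 916 and 791 for the 2 mice and 1513, 1489.7 and 1593 for the 3 vials, a difference of 0.83 (SE 0.11, adjusted p = 0.000433). Noc4l, the partner of Nop14 in yeast, gave 859 and 795 for the 2 mice and 1012, 1153 and 1142 for the 3 vials. Tsr1, a GTPase-like protein of the late precursor, gave 1259 and 1426 for the 2 mice and 1647, 2038 and 1643 for the 3 vials. Both had non-overlapping groups close to each other (differences 0.40 and 0.39, adjusted p = 0.0192 and 0.034). Wdr43, a protein of the processome subcomplex that links to transcription, was the other called gene at 0.36 (adjusted p = 0.0205). Without the second clone array another probe set of Wdr43 became the brightest, which differed by 0.10 without a call (adjusted p = 0.596). Without the second or the third clone array 3 of the 14 were called, where 21.9% and 18.6% of all genes tested were called higher. Fewer than 5 were also called without either transgenic array, which leaves a lone array in that group.

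Of the small subunit factors that were not called, the brightest showed values that mixed between the groups. Emg1, a methyltransferase of the small subunit RNA, gave 5963 and 5505 for the 2 mice and 5724, 6366 and 5844 for the 3 vials, with a difference of 0.06 and an interval of -0.14 to 0.26. Imp3, which binds the U3 RNA, gave 3294 and 3234 for the 2 mice and 3061, 3950.3 and 3291 for the 3 vials, with an interval of -0.20 to 0.33. Its partner Imp4 had all clone values above the transgenic ones but did not pass (0.27, adjusted p = 0.118). The same held for Utp20, a large scaffold of the processome, at 0.55 (adjusted p = 0.0547), which was called under quantile normalization (0.67, adjusted p = 0.0257) and without the second clone array (0.69, adjusted p = 0.0209). The differences of the other 5, Rrp12, Bysl, Utp18, Wdr3 and Ddx10, lay between -0.23 and 0.02. All clone values of the helicase gene Ddx10 and of Wdr3 lay below the transgenic ones, by too little for a call.

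The large subunit factors were the group with the widest range, with 5 higher, 1 lower and 6 not called of 12. The shares were 41.7% higher and 8.33% lower, against 22.0% and 21.7% of all genes tested. Nop16, a factor of early large subunit precursors, gave 477 and 658 for the 2 mice and 1476, 1258 and 1192 for the 3 vials. The transgenic arrays differed from each other, yet every clone value was far above both (difference 1.19, SE 0.16, adjusted p = 0.000497). Grwd1, whose yeast counterpart is the chaperone of ribosomal protein L3, gave 428 and 530.4 for the 2 mice and 691, 928 and 893 for the 3 vials, a difference of 0.78 (adjusted p = 0.00528). Ebna1bp2, a nucleolar scaffold of early precursors, gave 1083 and 1190.5 for the 2 mice and 1903, 1696 and 2041 for the 3 vials, a difference of 0.71 (adjusted p = 0.00121). Rrs1, needed in yeast to bring the 5S particle into the precursor, was higher by 0.68 (adjusted p = 0.00181), read by a probe set that Affymetrix marks as prone to cross-hybridization, and its other probe set was higher too, by 0.40.

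Pes1, Bop1 and Wdr12 encode the 3 proteins of the PeBoW complex, which is needed for processing of the large subunit RNA, and they had 3 different outcomes. Pes1 was higher, at 688 and 801 for the 2 mice and 1194, 1138 and 1097 for the 3 vials (difference 0.61, adjusted p = 0.00295). Bop1 was not called, at 1123 and 1254 for the 2 mice and 1022, 1051 and 1139 for the 3 vials (difference -0.15, interval -0.40 to 0.10). Wdr12 was the only one of the 46 genes called lower, at 1625 and 1818 for the 2 mice and 1047, 882 and 1138 for the 3 vials. Its clone values were all well below the transgenic ones (difference -0.75, SE 0.13, adjusted p = 0.002), but a second, dim probe set of Wdr12 gave 0.13 without a call, and with the mean over probe sets the difference was -0.31 (adjusted p = 0.114). The other uncalled large subunit factors were Nip7 (0.20), Nop2, a ribosomal RNA methyltransferase (0.16), Noc2l (0.11), Rrp1b (-0.13) and Noc3l (-0.38). Nip7 gave 1197 and 1189.5 for the 2 mice and 1599, 1334 and 1213 for the 3 vials. The lowest clone value of Nip7 was barely above the transgenic ones, and the clone values of Noc3l all lay below them.

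**Figure D2:**
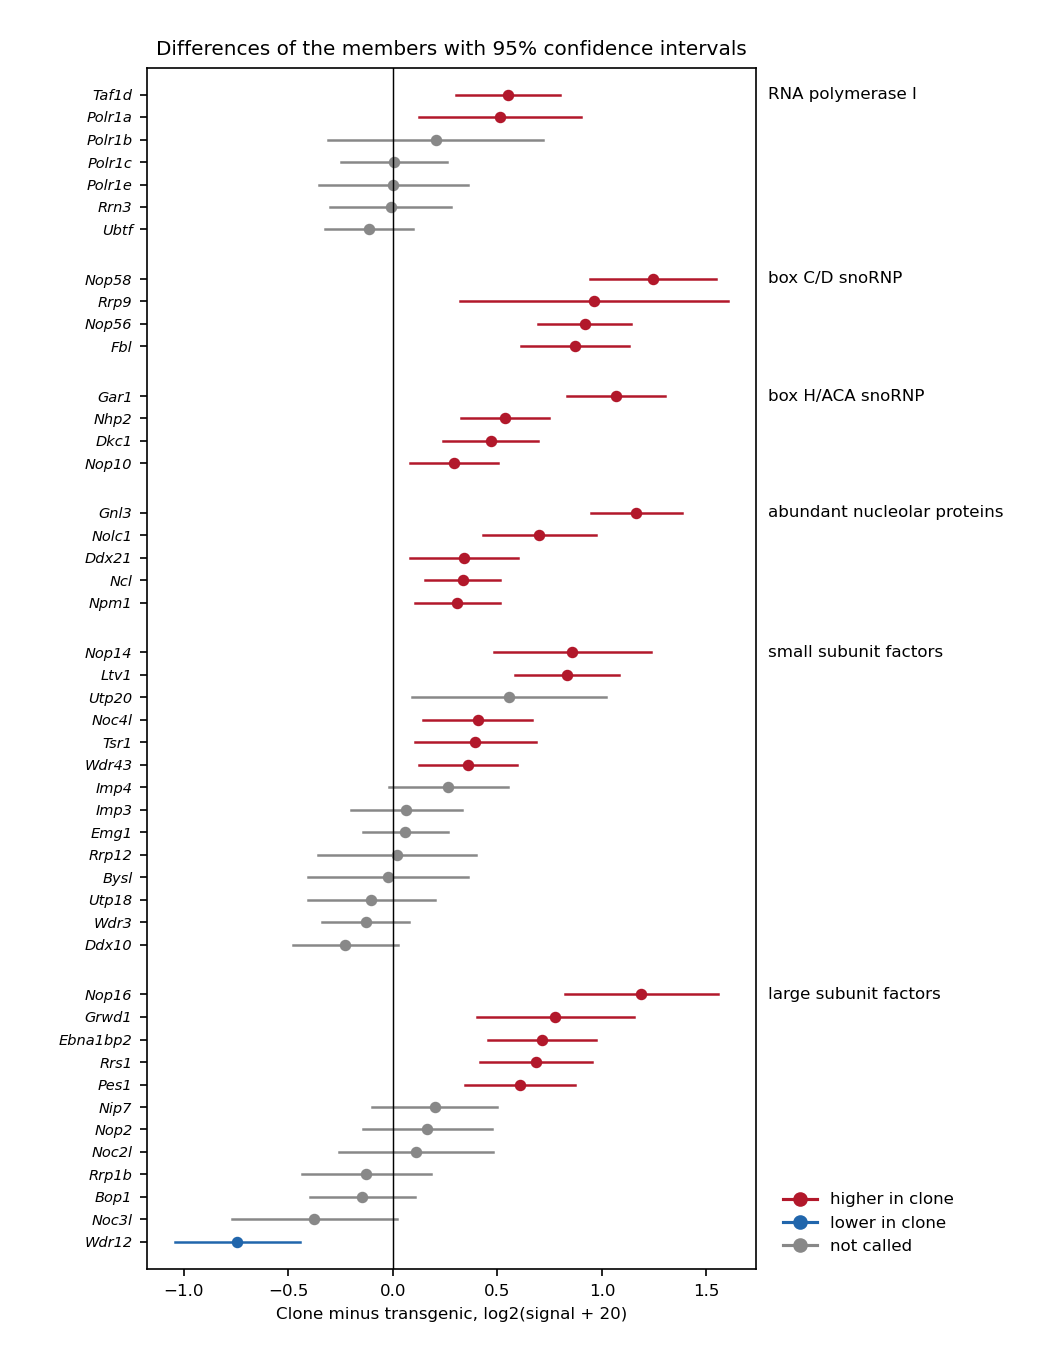
Difference of each of the 46 genes (clone minus transgenic on the log2(signal + 20) scale, x axis) with its 95% confidence interval from the limma fit to 5 arrays, grouped by role and coloured by call. The intervals of all 13 genes of the box C/D, box H/ACA and abundant nucleolar groups lie above 0, and that of Wdr12 lies below 0.

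Of 7 genes of the RNA polymerase I machinery, 2 were higher and 5 were not called, with a median difference of 0.00. The share called higher, 28.6%, was near the 22.0% of all genes tested. Taf1d, a subunit of the promoter selectivity factor SL1, gave 1288 and 1299 for the 2 mice and 1918, 1721 and 2080.2 for the 3 vials. Taf1d was apart between the groups (difference 0.55, SE 0.11, adjusted p = 0.00376), read by a probe set that Affymetrix marks as prone to cross-hybridization. Its other probe sets gave 0.98, 0.62 and 0.62 with a call, and 0.44, 0.31 and -0.15 without one. Polr1a encodes the largest subunit of the enzyme and was dim, at 199 and 223 for the 2 mice and 337, 314 and 278 for the 3 vials. The Polr1a groups did not overlap, and the difference of 0.51 passed narrowly (adjusted p = 0.038). Another Polr1a probe set of nearly the same brightness gave 0.03 without a call (adjusted p = 0.887), and a dimmer one gave 1.52 (adjusted p = 0.00588), so that the call rests on the choice of probe set. Polr1c, a subunit shared with RNA polymerase III, gave 1303 and 1279.9 for the 2 mice and 1266, 1196 and 1430.5 for the 3 vials, with a difference of 0.00 and an interval of -0.25 to 0.26. Ubtf, the upstream binding factor that marks active ribosomal DNA, gave 2560.1 and 2579 for the 2 mice and 2241, 2502 and 2379 for the 3 vials. Its clone values were all slightly below the transgenic ones (-0.11, interval -0.32 to 0.09, adjusted p = 0.345). Rrn3, the factor that makes the polymerase competent to initiate, differed by -0.01 (interval -0.30 to 0.28), Polr1e by 0.00 (-0.35 to 0.36) and Polr1b, the second largest subunit, by 0.20 (-0.31 to 0.72). With any array other than the third clone array left out, Taf1d was the 1 gene of this group still called.

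Most genes have further probe sets, which gave a further reading of many of these calls in the same RNA. The 46 genes have 98 probe sets, and 44 of those that were not the brightest passed the signal minimum, for 30 genes. Of these 44, 22 were called higher, 2 lower and 20 were not called, when 21.1% of all probe sets tested were higher and 22.5% lower. Where the brightest probe set was higher, 19 others were higher too, 10 were not called and 1 was lower. The lower one belongs to Ddx21, with 1267 and 1176 for the 2 mice and 811, 848 and 930.2 for the 3 vials (difference -0.49, adjusted p = 0.0082), the opposite of its brightest probe set. With the mean over both probe sets Ddx21 differed by -0.08 without a call (adjusted p = 0.541), so that its direction is not settled.

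The size of a difference often depended on the probe set: of the 44 further ones, 23 gave a larger difference than the brightest and 21 a smaller one. For Ncl, a second bright probe set gave 4672 and 4917 for the 2 mice and 8477, 8348 and 9054 for the 3 vials (difference 0.84, adjusted p = 9.85e-05), compared with 0.33 on the brightest. For Dkc1 both other tested probe sets were higher, by 0.92 and 1.33. For Nhp2 the other probe set gave 1.13. Differences were smaller and not called on another probe set of Polr1a (0.03), Tsr1 (0.05), Wdr43 (0.08), Noc4l (0.23), Ncl (0.24) and Pes1 (0.43). Taf1d had such probe sets at 0.44, 0.31 and -0.15. A further probe set of Ebna1bp2 gave a larger difference, 1.16, without a call (adjusted p = 0.114). It read 205 and 185 for the 2 mice and 169, 694 and 795 for the 3 vials, so that the groups overlapped. Noc2l, which also binds histones, was not called on its brightest probe set, but another gave 255 and 349 for the 2 mice and 730.5, 851 and 799 for the 3 vials (difference 1.35, adjusted p = 0.000253). Imp4 (1.22) and Polr1c (0.66) were likewise called higher on a dimmer probe set only. Rrp1b, not called on its brightest, was lower on another (-0.48, adjusted p = 0.0236). The files do not say which transcript ends or isoforms these probe sets cover.

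**Figure D3:**
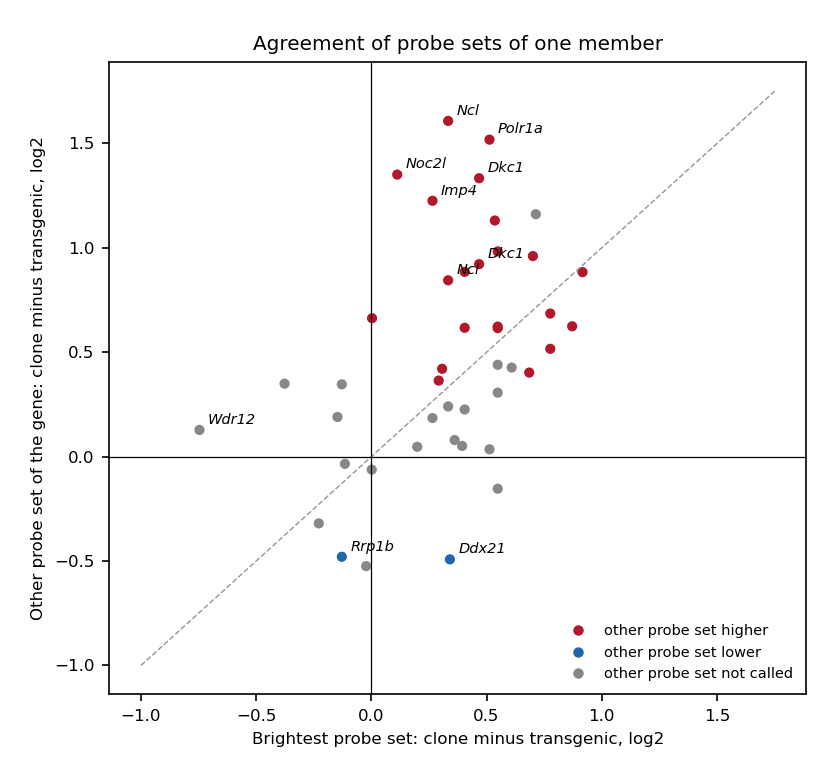
Difference on each further probe set of a gene (y axis) against the difference on its brightest probe set (x axis), both clone minus transgenic on the log2(signal + 20) scale, for 44 probe sets of 30 genes, coloured by the call of the further probe set. The dashed line marks equal differences. Most points lie at the upper right, and the Ddx21 probe set lies in the lower right with a difference of -0.49.

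Some ribosome biogenesis genes carry genes of small nucleolar RNAs within their introns, a feature that was examined after the calls were known. By the RefSeq gene table of mouse assembly GRCm38.p6, which gives no strand, 8 of the 46 genes span at least 1 annotated snoRNA gene. They are Taf1d with 6, Nop56 with 5, Nop58 with 4, Gnl3 and Wdr43 with 3 each, Ncl with 2, and Dkc1 and Tsr1 with 1 each. The spans hold, among others, Snord57 and Snord110 in Nop56, Snord11 and Snord70 in Nop58, Snord19 and Snord69 in Gnl3, and Snord82 and Snora75 in Ncl. All 8 were called higher in clone, with a median difference of 0.51, and 5 of the 8 remained so without the first transgenic array, 5 without the second and 5 with limma's intensity trend left out. Among the 38 genes without such a gene 17 were higher, 1 was lower and 20 were not called, with a median of 0.23. Over the whole array, 263 tested genes span a snoRNA gene, and 26.2% of them were higher and 21.3% lower. The 15 ribosomal protein genes that span a snoRNA gene had 1 higher and 1 lower member. The arrays' probe sets for these genes read the host transcripts, and the snoRNAs themselves were not analysed here.

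The sequences just around the genes' start sites were compared with those of the rest of the genome. RefSeq windows of 250 bases before to 50 after the start (GRCm38.p6) were at hand for 41 of the 46 genes. The E-box CACGTG, the sequence that MYC and related factors bind, was present in 10 of the 41 genes (24.4%), against 8.1% of all genes with a window and 11.4% of those tested. CCGGAAGT, read on both strands and typical of ETS family binding, was present in 13 of 41 (31.7%), against 4.3% of all genes with a window and 8.7% of those tested. The palindrome bound by NRF1 was in the windows of 0 of the 41 genes and of 2.2% of the genes tested. The calls were spread over genes with and without each motif: 5 of the 10 genes with CACGTG and 6 of the 13 with CCGGAAGT were higher in clone, and 17 of 31 and 16 of 28 of the genes without it. CACGTG and CCGGAAGT cannot overlap each other.

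The windows shown are those of Gar1, the box H/ACA gene with the largest difference and with the ETS type motif alone, and of 3 of the 4 genes with both motifs. Ltv1 and Tsr1, small subunit factors, were higher in clone, and Rrn3, the polymerase I initiation factor, was not called. A call was therefore not made for every gene with both motifs in its window. Grwd1, the fourth gene with both motifs, was higher. Capitals mark CACGTG, and CCGGAAGT or its reverse complement ACTTCCGG. Gar1 lies at chr3:129831347-129831646 on the minus strand, Ltv1 at chr10:13193088-13193387 on the minus strand, Tsr1 at chr11:74897830-74898129 on the plus strand and Rrn3 at chr16:13780449-13780748 on the plus strand.
Gar1: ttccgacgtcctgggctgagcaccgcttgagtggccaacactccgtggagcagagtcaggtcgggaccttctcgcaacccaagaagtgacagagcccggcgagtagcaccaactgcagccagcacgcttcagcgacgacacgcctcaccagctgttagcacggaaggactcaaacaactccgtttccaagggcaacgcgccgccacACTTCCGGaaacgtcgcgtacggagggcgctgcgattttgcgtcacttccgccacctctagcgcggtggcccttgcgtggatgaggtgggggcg
Ltv1: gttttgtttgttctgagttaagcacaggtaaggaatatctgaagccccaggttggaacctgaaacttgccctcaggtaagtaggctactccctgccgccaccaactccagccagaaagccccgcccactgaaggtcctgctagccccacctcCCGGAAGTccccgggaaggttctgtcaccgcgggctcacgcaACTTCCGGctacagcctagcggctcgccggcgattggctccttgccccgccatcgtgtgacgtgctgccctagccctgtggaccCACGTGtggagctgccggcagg
Tsr1: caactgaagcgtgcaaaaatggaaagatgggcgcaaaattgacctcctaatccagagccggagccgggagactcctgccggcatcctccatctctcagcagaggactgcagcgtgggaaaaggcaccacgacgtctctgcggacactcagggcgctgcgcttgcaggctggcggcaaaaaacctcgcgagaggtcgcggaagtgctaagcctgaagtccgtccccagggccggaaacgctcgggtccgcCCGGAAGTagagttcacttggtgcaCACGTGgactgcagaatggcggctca
Rrn3: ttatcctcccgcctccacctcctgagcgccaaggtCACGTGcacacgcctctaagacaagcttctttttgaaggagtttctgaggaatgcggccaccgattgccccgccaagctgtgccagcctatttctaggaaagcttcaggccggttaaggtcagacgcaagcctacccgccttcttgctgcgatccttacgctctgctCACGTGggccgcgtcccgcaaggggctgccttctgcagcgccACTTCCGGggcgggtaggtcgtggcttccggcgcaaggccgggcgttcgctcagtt

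In Ltv1 the CCGGAAGT motif occurs on both strands, starting 98 and 56 bases before the start site, and CACGTG lies 28 bases after it. Rrn3 holds CACGTG at 2 places, 215 and 48 bases before the start. A match of letters is not a measured binding site.

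Wider lists of the same pathway, which do not contain the 46 genes, had more genes higher than lower among assembly factors. This was not so among the polymerase genes. Over all genes tested, the shares to set beside these lists are 22.0% higher and 21.7% lower. Of 38 other small subunit factors, 14 were higher, 7 lower and 17 not called (median 0.23). Nol10 gave 294 and 469 for the 2 mice and 920.1, 1487 and 1147 for the 3 vials (difference 1.59, adjusted p = 0.000828), the kinase gene Riok2 1.05 and Rrp7a 0.92. Of 40 other large subunit factors, 15 were higher, 4 lower and 21 not called (median 0.25). Ppan, known in yeast as a factor of early large subunit assembly, gave 248 and 282 for the 2 mice and 685, 850.3 and 944 for the 3 vials (difference 1.56, adjusted p = 0.000128). Rpf2, which brings the 5S particle into the precursor, was higher by 1.19, and Nvl, an ATPase that remodels the precursor, was lower, at -1.21. Both Rpf2 and Nvl lost their call with the mean over probe sets (0.30 and -0.29). Without the first or second transgenic, or without the first or the third clone array, 9 of the other small subunit factors were higher. Of them, 2 were lower without the first transgenic array and 3 without the second.

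Of 9 further RNA polymerase I genes, 1 was higher, 4 were lower and 4 were not called. Taf1c, a subunit of SL1 like Taf1d, gave 748 and 679 for the 2 mice and 346, 375 and 213 for the 3 vials (difference -1.18, adjusted p = 0.00321). Taf1a, another SL1 subunit, gave 334 and 293 for the 2 mice and 173, 163 and 157 for the 3 vials (-0.86, adjusted p = 0.00465), and Ttf1, the terminator binding factor of ribosomal DNA, gave 748 and 671 for the 2 mice and 376, 360.5 and 455 for the 3 vials (-0.81, adjusted p = 0.00248). In each the clone values were well under the lower transgenic value. Within SL1, Taf1d was therefore called higher on its brightest probe set, and Taf1a and Taf1c lower. Taf1b, named after its value was seen, was not called (0.25). The fourth lower gene was Tcof1, a cofactor of ribosomal DNA transcription (-0.50), and the higher one Polr2f, a subunit shared by the 3 polymerases (0.65), both also named after their values were seen. Of 19 RNA polymerase III genes, 2 were higher (10.5%), 4 lower (21.1%) and 13 not called (median -0.05). Over all genes tested 22.0% were higher and 21.7% lower. The called genes with the largest differences were the initiation factor genes Gtf3c4 (-1.37) and Gtf3c2 (0.88) and the subunit gene Polr3g (-0.67). Under quantile normalization 5 polymerase III genes were higher and 3 lower, and under median scaling 5 and 4, so that the balance of calls in this list depends on the scaling. The calls of Gtf3c4 and Gtf3c2 were lost with the mean over probe sets (-0.57 and 0.22). Without either transgenic array 1 polymerase III gene was higher and 2 were lower.

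None of the factors that assemble snoRNPs was called lower. Of 9 measured, 5 were higher, 3 were not called and Shq1 did not pass the signal minimum. Ruvbl1, an ATPase of the assembly chaperone complex, gave 462 and 445 for the 2 mice and 965, 768 and 930.1 for the 3 vials (difference 0.93, adjusted p = 0.000785). Naf1, which prepares box H/ACA particles, was higher by 0.76, and Znhit6, which prepares box C/D particles, by 0.76. Without either transgenic array or the third clone array 3 of them were called. Of the 12 genes of the RNA exosome, which trims ribosomal RNA precursors, 6 were higher, 2 lower and 4 not called, with Mphosph6 (1.27), the nuclease gene Dis3 (0.88) and Exosc3 (0.70) in front. Neither lower exosome gene was called without the first transgenic, the first clone or the third clone array, and 1 was without the second clone array.

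The genes of the cytosolic ribosomal proteins, the partners of the ribosomal RNA, were mostly not called, and most of them were bright. Of the 44 genes, 34 had a mean signal above 15000, when the arrays' highest signals were 25836 to 30579, and whether differences were compressed there was not tested. Of 44 measured by a probe set of 1 symbol, out of 79 listed, 5 were higher, 3 lower, 35 not called and 1 did not pass the minimum, with a median of -0.08. Rplp0, a protein of the ribosomal stalk, gave 28303 and 23610.1 for the 2 mice and 18926, 20914 and 17993 for the 3 vials (difference -0.43, adjusted p = 0.0108). Rpl27a was lower, at -1.41, and Rpl14 higher, at 0.70, both on probe sets far dimmer than most of the list. Rpl27a gave 1476 and 1483.5 for the 2 mice and 577, 457 and 613 for the 3 vials. Rpl14 gave 493 and 548 for the 2 mice and 886, 796 and 888 for the 3 vials. The median of the mean signals of the list was 20626. Under quantile normalization 10 were higher and 6 lower. Of the ribosomal protein genes, 1 was higher without the first transgenic array, 2 without the second and 2 without the third clone array. Without the first transgenic array 1 was lower, without the first or the third clone array 2 were, and without the second clone array 8 were. Myc, the transcription factor that drives many of the 46 genes in growing cells, gave 2631 and 2943 for the 2 mice and 4263, 2452 and 3072 for the 3 vials. The groups overlapped, with the highest and the lowest value both among the clone arrays (0.19, interval -0.27 to 0.65, adjusted p = 0.476), and the related Mycn was dim, from 37.8 to 319.4, and not called (-1.34, adjusted p = 0.0775).

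**Figure D4:**
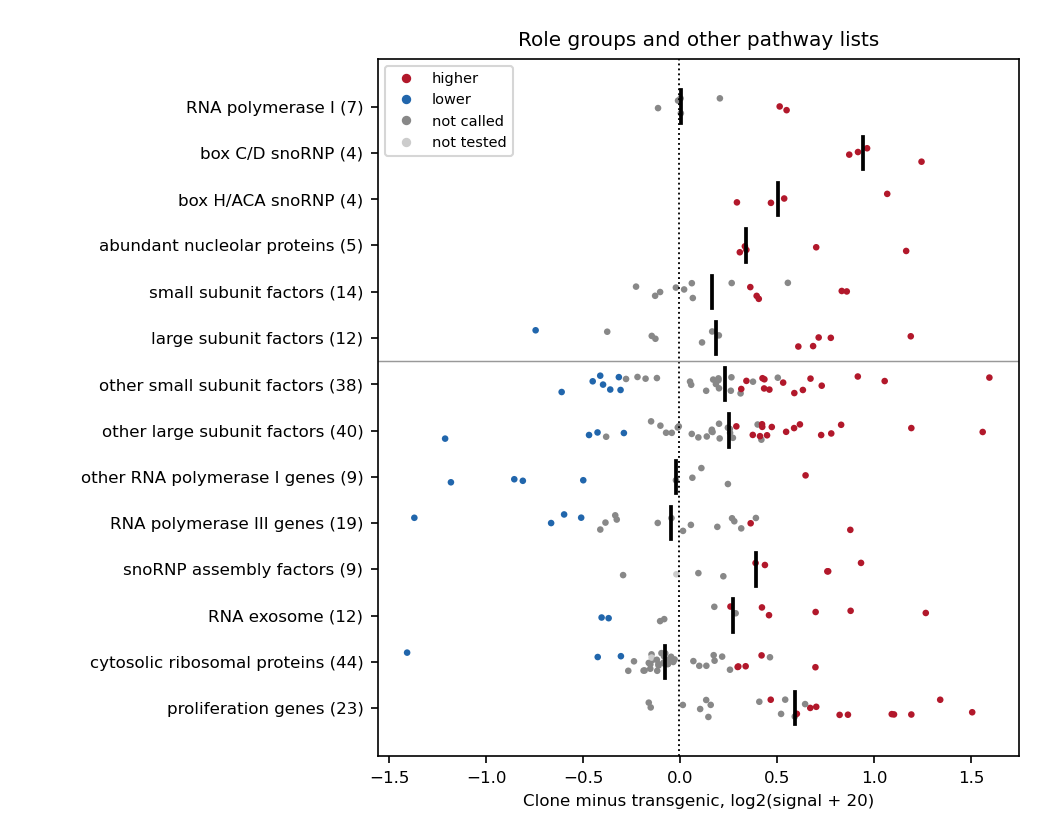
Difference of each gene (clone minus transgenic on the log2(signal + 20) scale, x axis) in the 6 role groups of the 46 genes (above the line) and in 8 other lists (below it), with the number of genes in brackets. Points are coloured by call, black bars are medians and the dotted line is the median over all genes tested. The box C/D group sits furthest to the right at a median of 0.94, and cytosolic ribosomal proteins cluster just under 0 at -0.08.

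The clone vials differed less in the 46 genes than in genes of cell division. Of 23 proliferation genes, 11 were higher in clone and 12 not called (median 0.59), led by the mitotic genes Bub1b (1.51), Cdc20 (1.34) and Plk1 (1.19). All 23 were lower on the second clone array than the mean of the other clone arrays, by a median of -0.70. For the 46 ribosome biogenesis genes that median was -0.03, with 27 below and 19 above. The second clone array was the lowest clone array for 18 of the 46 genes and the highest for 14. The third clone array was above the mean of the other vials for 30 of the 46, by a median of 0.08, and the highest for 22. By role, small subunit factors were lower on the first clone array for 11 of 14 genes (median -0.12), and large subunit factors higher on the third for 9 of 12 (0.16). Against the mean of the transgenic arrays, the 46 genes had a median of 0.30, 0.33 and 0.37 on the 3 clone arrays, while the proliferation genes had 0.85, 0.06 and 0.85. Without the second clone array 18 proliferation genes and 22 of the 46 were called higher, and without each other array 4 to 6 proliferation genes were. The ribosomal protein genes deviated on that array in the opposite direction to the proliferation genes, by a median of 0.20.

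Between the mice the 46 genes differed somewhat. On the second transgenic array 32 of 46 were above the first, by a median of 0.09, and so were 20 of 23 proliferation genes, by 0.19. In the large subunit group 11 of 12 genes were higher on the second transgenic array, and in the box H/ACA group all 4 were. Of the small subunit factors, 6 were higher there and 8 lower (median -0.04), and the box C/D genes were split 2 and 2. Myeloid markers differed between the mice in the same direction, with 12 of 13 above on the second array. The part of this in the results was not tested.

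**Figure D5:**
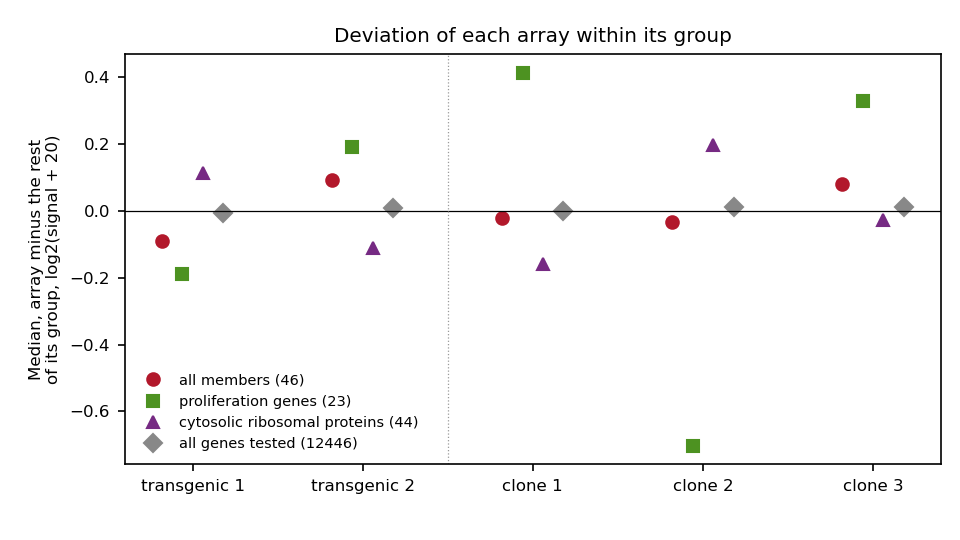
Median over the genes of a list of each array minus the mean of the other arrays of its group, on the log2(signal + 20) scale (y axis), for the 5 arrays (x axis) and 4 lists, with the number of genes in brackets. Proliferation genes drop to -0.70 on the second clone array while the ribosome biogenesis genes (all members) stay at -0.03, and reach 0.08 on the third clone array.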

How the data were processed

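RNA of 5 cultures (8 µg each) was turned into biotinylated cRNA and read on Affymetrix mouse arrays, 1 a culture, per the labels' protocols. Groups came from the sample titles: 3 vials of 1 clone and 2 mice, so p-values cover the spread between these. The authors deposited 1 linear intensity for each probe set, made with GCOS, per the submitters' processing notes. The values show scaling to a 2% trimmed mean of 500 on every array, and no detection calls are given. They were used without further normalization; depth has no meaning here, and the number of arrays limits precision (median SE over the 46 genes 0.117).

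Of 45101 probe sets, 34945 have 1 gene symbol by GEO's platform annotation, 932 have several and 9160 have none; 64 are controls and were left out. RefSeq symbols of GRCm38.p6 changed 0. Values were log2(signal + 20), which understates differences of dim genes. Each gene's brightest probe set entered limma 3.58.1 (R 4.3.3; lmFit, eBayes with trend, two-sided, 3 residual degrees of freedom) if its mean signal reached 88.2, the 40th percentile. Benjamini-Hochberg adjustment ran over all 12446 genes. No array copied another: 85 to 158 probe sets were identical in any pair. The fit was tested on simulated data.

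The 47 genes and all lists were chosen with earlier results of these data known. Named were, in each role group, up to 4 called genes with the largest difference and up to 2 uncalled ones of highest signal; in other pathway lists, up to 3 called genes, or the brightest; Myc always. Alternatives were quantile normalization, pseudocounts of 1 and 50, no filter, the 60th percentile, the mean over probe sets above the minimum, no cross-hybridizing probe sets (type x), eBayes without trend or robust, a replicate block, and leaving out each array. Median scaling was added after seeing the data. Figures used matplotlib 3.10.9 in Python 3.11.15.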

Additional observations from a re-analysis of the deposited data

How the results depend on the processing

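The median difference of the 46 genes was above 0 under all 16 alternatives, from 0.29 without the second clone array to 0.43 with median scaling. It moved by more than the spread between arrays (pooled SD 0.046) under median scaling and with the mean over probe sets (0.42). The same held without the second clone array, and it moved by less under the others. With 1 array left out it was 0.29 to 0.36. Under median scaling the median over all genes tested rose too, from -0.01 to 0.08, and 26.1% of them were called higher. Of the 25 higher genes, 14 kept their call under every alternative: Taf1d, Fbl, Nop56, Nop58, Nhp2, Gar1, Nolc1, Gnl3, Ltv1, Nop14, Pes1, Ebna1bp2, Rrs1 and Nop16. The number called higher was 18 to 27 under the other settings and 15 to 23 with 1 array left out. With the mean over probe sets 0 genes were lower, since Wdr12 lost its call, and Ddx21 changed sign to -0.0756. Of the calls that this setting moved, that of Utp20 has 1 probe set and an unaltered difference of 0.55, and passed at an adjusted p of 0.0458. The number of RNA polymerase I genes called higher was 1 without a filter, and with the replicate block also 1. Among abundant nucleolar proteins 2 were higher without an intensity trend and 2 with the replicate block, and among small subunit factors 3 and 3. With 1 array left out, 1 to 2 polymerase I genes, 3 to 4 box C/D, 2 to 4 box H/ACA, 3 to 5 nucleolar, 2 to 5 small subunit and 4 to 5 large subunit genes were higher. The lone transgenic array is then assumed to vary like the clone arrays. The replicate numbers are only numbers: for the 2 shared ones, the difference between replicates 1 and 2 correlated by -0.06 between the groups across genes, and with the block 18 of the 46 genes were higher and 1 lower. The cause of these changes was not tested. Because the table has no detection calls, the distance of dim genes such as Rrp9 and Polr1a from background is not known.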
